A study of Mus musculus with 249 samples.

Results

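Genome architecture mapping (GAM) measures which parts of the genome lie in a thin slice of a nucleus. Neighbours in the nucleus tend to share a slice, and the raw datum is a list of genome windows that were or were not found in each sample. A slice holds far less DNA than a whole nucleus, and that DNA has to be amplified by whole genome amplification (WGA), in which fragments are given universal ends and copied by the polymerase chain reaction (PCR). Each PCR cycle copies the fragments anew, so the cycle number sets how far a fragment is multiplied in the WGA reaction. The experiment described here varied that number: the WGA reaction ran for 20, 23 or 25 cycles, with 4, 5 and 3 libraries, which makes 12 libraries of a series that holds 237 others. The 12 were chosen by the experiment that their sample titles name, and the arm of each by the cycle number in the title.

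All 12 libraries came from 46C cells, a male mouse embryonic stem cell line of strain 129/Ola that carries a fluorescent reporter knocked in at Sox1 and was grown on gelatin with LIF and re-plated in serum-free medium a day before harvest. Each tube pooled 4 profiles by its title (how many of them held DNA is not known for single tubes), cut from unstained cryosections of 220 nm and picked by laser microdissection, and the lysate was frozen overnight before library preparation in all arms. In the protocol text of the labels, as far as it was available here (its last words are cut off), nothing but the cycle number differed between the arms. By that text all 237 other libraries were amplified with 25 cycles, while the general methods of the study give a slightly different number for the amplification. The library names ended in 1 at 25 cycles, in 2 at 23 cycles and in 3 at 20 cycles, so that an effect of the cycle number and an effect of whatever this ending stands for cannot be told apart. The libraries of an arm are separate tubes of different nuclear profiles of a single cell line, and p-values measure the spread between such tubes. Tubes that failed the authors' quality control are not in the table, and the arms are compared only on those that got through it.

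The libraries had 6564 to 19075 positive windows of 40 kb out of 68162 listed. In the 20-cycle arm, coverage (the percent of windows positive) was 16.7%, 9.63%, 11.6% and 18.5% in libraries 1 to 4. In the 23-cycle arm it was 24.5%, 22.7%, 17.1%, 25.7% and 21.5%. At 25 cycles it was 18.4%, 27.9% and 27.98%. The 20-cycle libraries thus occupied the lower end, but the ranges overlapped: 20-cycle libraries 1 and 4 lay close to the lowest libraries of the other arms. Coverage differed across the arms by an exact permutation test of F (F = 6.71, p = 0.0208, adjusted p = 0.0346 over the 10 library measures tested). The call was lost on ranks (adjusted p = 0.0592) and without any of 8 libraries, namely 1, 2 and 3 at 20 cycles, 1, 2 and 5 at 23 cycles, and 2 and 3 at 25 cycles (adjusted p up to 0.104).

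The arms were separated more clearly by how the positive windows were strung together. When a piece of chromosome passes through a slice, its successive windows enter the tube together, and a window that is missed inside the piece shows up as a gap. The fill rate was therefore taken as the percent of windows positive among those with a positive window on each side. At 20 cycles the fill rates were 72.5%, 74.6%, 73.3% and 69.3%. At 23 cycles they were 86.4%, 84.8%, 88.2%, 85.1% and 82.4%. At 25 cycles they were 85.0%, 88.8% and 83.2%. Every 20-cycle library lay below every library of the other arms, and the 23- and 25-cycle libraries were interleaved. The means were 72.4% ± 2.28 (SD, n = 4), 85.4% ± 2.13 (n = 5) and 85.7% ± 2.89 (n = 3), with an exact permutation p of 0.00162 for F = 40.7 and an adjusted p of 0.00637.

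The 20-cycle libraries had 3460 to 6230 windows with positive neighbours on each side, and the other libraries 8342 to 14567. The highest upper bound of a 95% Wilson interval at 20 cycles was 76.0%, and the lowest lower bound in the other arms was 81.6%. These intervals cover counting error only and treat windows as independent. The reads behind a call are unknown, and a negative call does not separate DNA that was absent from DNA that gave too few reads.

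Runs of adjacent positive windows were shorter at 20 cycles. The mean run length in the 20-cycle libraries was 96.3, 101.7, 98.5 and 89.1 kb. In the 23-cycle libraries it was 159, 145, 178, 150 and 136 kb, and in the 25-cycle libraries 145, 202 and 142 kb. The 20-cycle arm again did not overlap the others, and the spread among 25-cycle libraries came mostly from library 2. The arm means were 96.4 ± 5.37, 153 ± 16.1 and 163 ± 33.8 kb, and they differed by the exact permutation test of F (F = 13.2, p = 0.00191, adjusted p = 0.00637). The longest run at 20 cycles measured 1200 to 1360 kb in the 4 libraries. It measured 1880 to 5160 kb at 23 cycles and 1920 to 7680 kb at 25 cycles. The run of 7680 kb, chr2:18320001-26000000 (mm9), was in 25-cycle library 2. Runs of at least 1 Mb held 0.713% to 1.52% of the positive windows of a 20-cycle library, 6.53% to 11.8% at 23 cycles and 6.62%, 28.004% and 7.17% in 25-cycle libraries 1 to 3, so that without library 2 the 25-cycle values lay inside the 23-cycle range. Runs of a single window made up 45.7% to 53.5% of all runs at 20 cycles and 35.3% to 41.9% in the other arms.

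**Figure D1:**
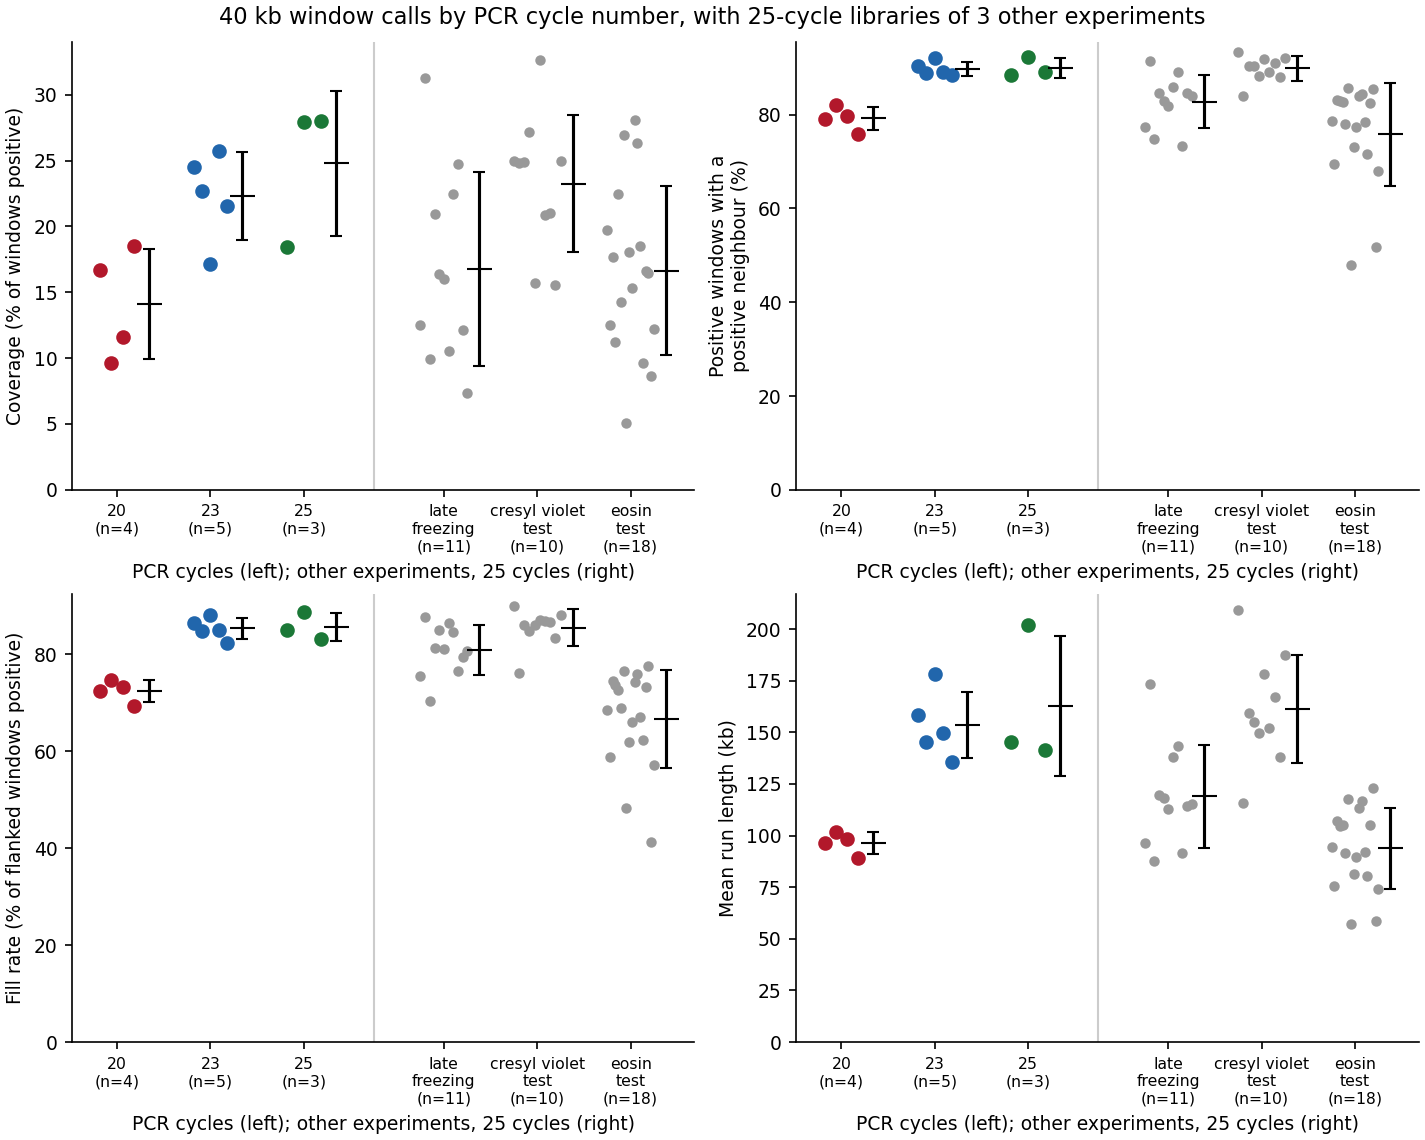
Coverage, share of positive windows with a positive neighbour, fill rate and mean run length of each library (points), with the mean and SD of each group at its right. The 4 libraries at 20 cycles (red) have fill rates of 69.3% to 74.6%, below all libraries at 23 (blue) and 25 cycles (green), and inside the range of the 25-cycle libraries of the eosin test (grey).

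The same separation held for the neighbour share, the percent of positive windows with at least 1 adjacent positive window. Its values were 76.0% to 82.0% at 20 cycles, 88.5% to 92.1% at 23 cycles and 88.4% to 92.4% at 25 cycles (exact permutation test of F, F = 37.2, adjusted p = 0.00637). Since neighbours meet by chance more often at high coverage, the share was also taken above that of randomly placed windows, as a percent of the room left. This excess was 71.5% ± 6.08, 82.9% ± 3.28 and 82.4% ± 3.12, again without overlap between 20 cycles and the others (exact permutation test of F, F = 8.75, adjusted p = 0.0170). Neighbour share, fill rate and run length were computed from the same calls and are not independent of each other.

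Libraries of like coverage can be set side by side. The 20-cycle libraries 1 and 4, with coverage of 16.7% and 18.5%, had fill rates of 72.5% and 69.3%. The 23-cycle library 3 and the 25-cycle library 1, with coverage of 17.1% and 18.4%, had fill rates of 88.2% and 85.0%. Mean run length in these libraries was 96.3 and 89.1 kb at 20 cycles against 178 and 145 kb. At about the same number of positive windows, the windows of the 20-cycle libraries were thus more broken up.

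Pairs of arms gave the size of these differences. Fill rate at 20 cycles was lower than at 23 cycles by 13.0 percentage points, as the mean difference of -13.0 shows (90% interval -15.8 to -10.1, exact permutation p = 0.0159). Against 25 cycles the difference was -13.3 (90% interval -19.6 to -8.54, exact permutation p = 0.0571). Each is the smallest p that this form of the test, which doubles the smaller tail, can give at these group sizes, and neither passed after adjustment over 30 pairwise contrasts (adjusted p = 0.119 and 0.143), where no contrast passed. In the form that counts absolute differences the exact permutation p were 0.00794 and 0.0286 (adjusted p = 0.0595 and 0.0857). Between 25 and 23 cycles the difference in fill rate was 0.294 percentage points with a 90% interval from -3.23 to 3.99 (exact permutation p = 0.821). Differences of a few percentage points in fill rate lie inside this interval. For mean run length the difference of 25 and 23 cycles was 9.46 kb with a 90% interval from -32.8 to 56.7 kb (exact permutation p = 0.571).

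Away from the runs, no difference between the arms was detected. The isolated rate was the percent of windows positive among those whose nearest 2 windows on each side were all negative, where a call has no support from its neighbours. It was 2.76%, 1.14%, 1.59% and 3.69% in the 20-cycle libraries. It ranged from 1.01% to 2.60% at 23 cycles and from 1.65% to 2.66% at 25 cycles. The highest and nearly the lowest value both fell in the 20-cycle arm, and the arms overlapped (exact permutation test of F, F = 0.202, p = 0.827). The 90% interval of the difference between 20 and 23 cycles was -0.905 to 1.66 percentage points.

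At a coarser scale, a bin of 1 Mb was taken as caught when at least 5 of its 25 windows were positive. Caught bins made up 30.0% ± 9.55 of all bins at 20 cycles, 39.6% ± 6.37 at 23 cycles and 42.3% ± 10.1 at 25 cycles (exact permutation test of F, adjusted p = 0.219). The density inside and outside caught bins was examined after the data had been seen. Within caught bins, 41.4% to 43.7% of windows were positive at 20 cycles, 52.5% to 57.7% at 23 cycles and 51.98% to 64.1% at 25 cycles. Outside them, the percent was 2.63 ± 1.00, 2.43 ± 0.681 and 2.74 ± 0.947. The bins were split by the same calls, so that the density is bounded from below inside caught bins and from above outside them, and these values are a description with no test.

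How far a positive call reached along the chromosome was measured by the correlation of calls between windows of a library. At 80 kb the correlation was 0.370 to 0.474 at 20 cycles, 0.534 to 0.650 at 23 cycles and 0.514 to 0.682 at 25 cycles. At 1 Mb it was 0.176 to 0.242, 0.278 to 0.369 and 0.232 to 0.490. These 2 levels were added after the data had been seen, with unadjusted p of 0.00512 and 0.0317 by the exact permutation test of F. The shape of the decay, the ratio of the correlation at 1 Mb to that at 80 kb, was 0.463 ± 0.0396, 0.543 ± 0.0379 and 0.581 ± 0.134. It did not pass the threshold (exact permutation test of F, adjusted p = 0.143). It did so without 25-cycle library 3 (adjusted p = 0.00758), whose ratio of 0.451 was near those of the 20-cycle arm, while that of 25-cycle library 2 was 0.719.

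**Figure D2:**
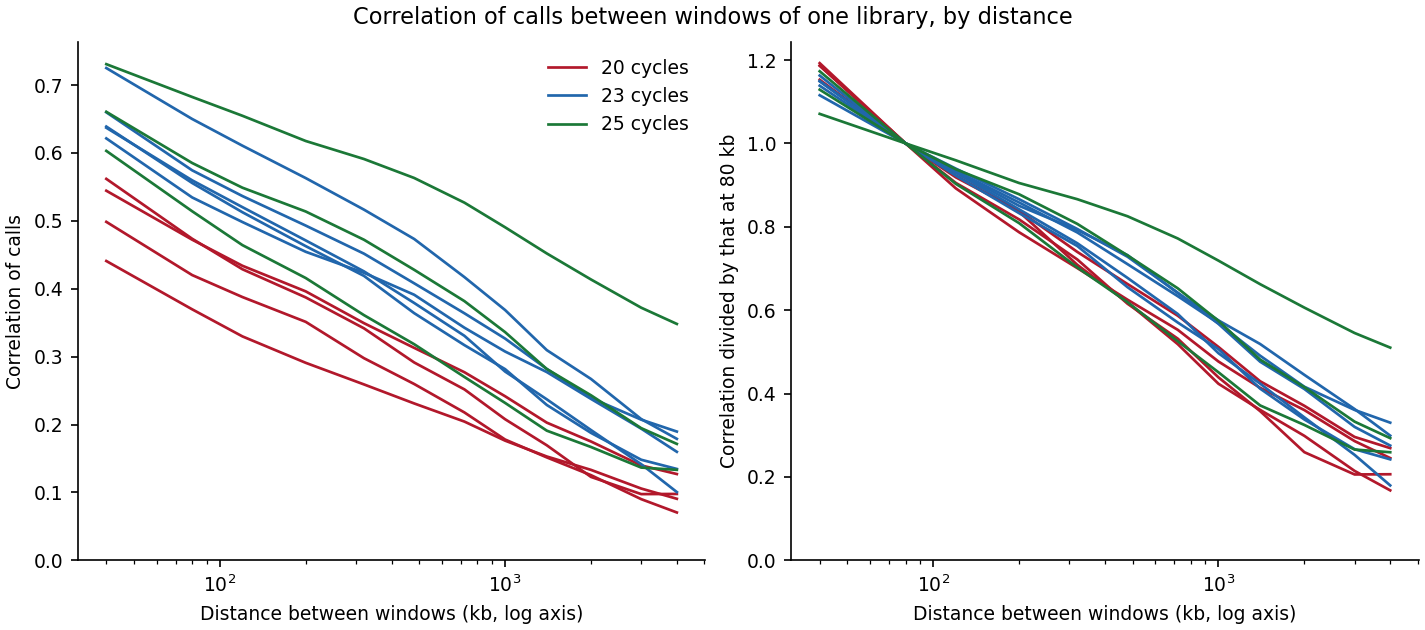
Correlation of calls between autosomal windows of a library against their distance (log axis), as measured (left) and divided by its value at 80 kb (right), with a line per library. At 80 kb the 4 lines at 20 cycles (red) run from 0.370 to 0.474, below all others, and after scaling the lines of the arms cross except for 25-cycle library 2, which stays highest at 1 Mb with 0.719.

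GC content is known to affect PCR, and all 4 libraries at 20 cycles covered GC-rich windows more than GC-poor ones. Autosomal windows were split into 5 classes of 11971 windows by GC content in the mm9 sequence, with means from 36.9% in the lowest class to 48.2% in the highest. The GC contrast was the coverage of the highest class minus that of the lowest, as a percent of the autosomal coverage of the library. At 20 cycles it was 39.7, 43.02, 37.3 and 49.4. At 23 cycles it was 3.93, -19.4, 7.17, 45.9 and -9.97. At 25 cycles it was 20.6, 14.2 and 36.8. All 4 libraries at 20 cycles were positive by a similar amount, 23-cycle library 4 was as high, and 2 libraries at 23 cycles were negative. The arms did not pass after adjustment (exact permutation test of F, F = 4.77, adjusted p = 0.0605), and without 23-cycle library 4 they did (F = 21.97, adjusted p = 0.00173). Chromosomes differ in GC content and each library caught a different set of them. With the classes set within each autosome, a choice made after the data had been seen, the contrasts were 35.5 ± 10.8, 2.56 ± 21.2 and 24.4 ± 1.76, which did not pass either (exact permutation test of F, adjusted p = 0.0516). Nor did the correlation of the calls with GC content (exact permutation test of F, F = 1.79, adjusted p = 0.277).

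Fill rates were lower at 20 cycles in all 5 GC classes. In the lowest class they were 74.6%, 70.1%, 70.8% and 64.1% at 20 cycles, and 80.3% to 88.1% in the other arms. In the highest class they were 74.3%, 80.9%, 77.3% and 70.9% at 20 cycles, and 83.6% to 89.2% in the other arms. The 20-cycle arm did not overlap the others in any of the 5 classes. The difference between the highest and the lowest class within a library was -0.347, 10.8, 6.48 and 6.80 percentage points at 20 cycles, -1.23 to 2.69 at 23 cycles and 1.92 to 5.60 at 25 cycles. This comparison was added after the data had been seen and did not pass (exact permutation test of F, unadjusted p = 0.0801).

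**Figure D3:**
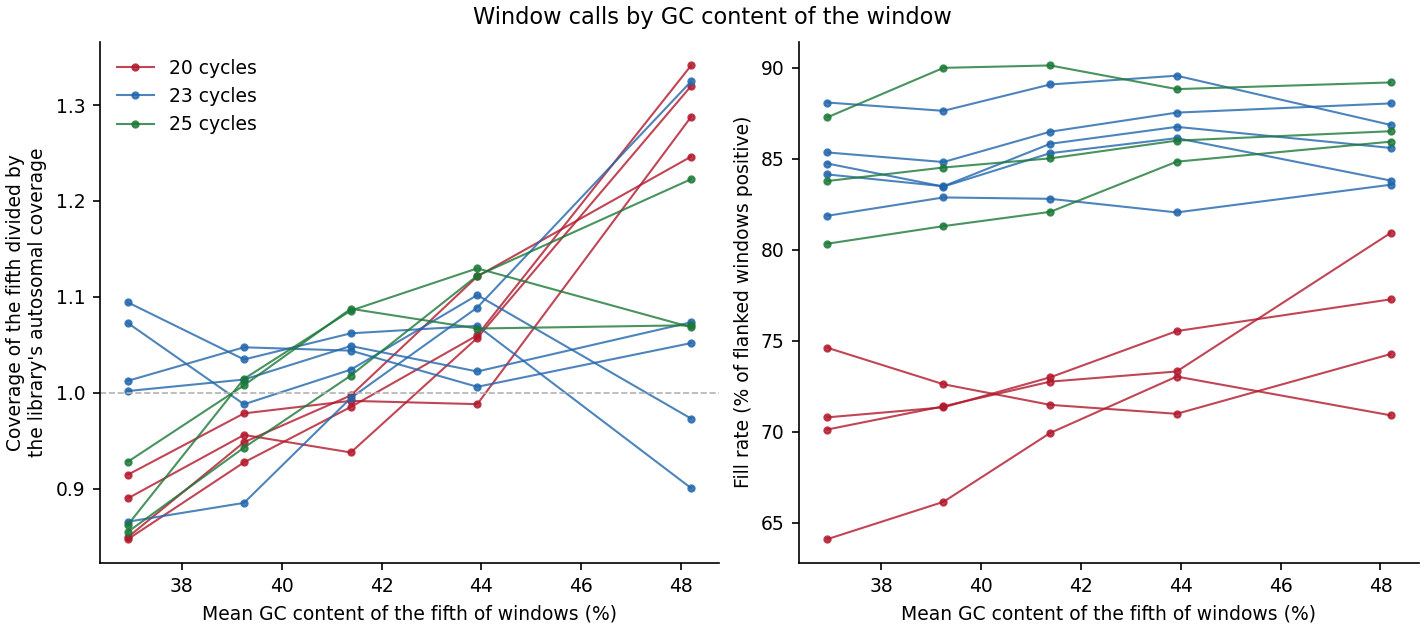
Coverage of each GC class divided by the autosomal coverage of the library (left) and fill rate in each GC class (right), against the mean GC content of the class, with a line per library. Coverage is higher in the highest class than in the lowest in all 4 libraries at 20 cycles (red), and the fill rates at 20 cycles lie below those of the other arms in each class.

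Windows over protein-coding genes were caught more often than the rest in all 12 libraries. The gene contrast, the coverage of autosomal windows that overlap a protein-coding gene minus that of the others as a percent of autosomal coverage, was 17.7 to 27.1 at 20 cycles, 1.64 to 18.5 at 23 cycles and 15.3 to 24.3 at 25 cycles. The arm that stood low was the 23-cycle arm, with a mean of 8.68 ± 6.47 against 22.1 ± 4.18 at 20 and 19.5 ± 4.53 at 25 cycles. The arms differed by the exact permutation test of F (F = 7.80, adjusted p = 0.0279). The call was lost with gene starts in place of gene bodies and without any of 4 libraries, namely 20-cycle libraries 1 and 2 and 23-cycle libraries 2 and 5. Gene-rich windows are also rich in GC, and the 2 contrasts were not separated.

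A male cell has a single chromosome X, and X coverage was below that of the autosomes in every library. The ratio of X to autosomal coverage was 0.366, 0.114, 0.745 and 0.125 at 20 cycles. At 23 cycles it was 0.224, 0.888, 0.0254, 0.570 and 0.547, and at 25 cycles 0.455, 0.818 and 0.890. The ratio varied widely within each arm, and no difference between arms was detected (exact permutation test of F, p = 0.282).

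The autosomes varied as widely between libraries. The highest autosome of a library had 29.9% to 37.2% of its windows positive at 20 cycles, 38.005% to 54.7% at 23 cycles and 46.5% to 81.9% at 25 cycles. The value of 81.9% was that of chromosome 14 in 25-cycle library 2, where chromosomes 2, 10 and 18 were also well covered, with 56.1%, 58.1% and 54.5% of windows positive. A test asked whether an arm caught a chromosome more often than its other autosomes. Of 20 chromosomes tested, 0 passed by the exact permutation test of F with adjustment (percent called 0.0) and 3 had an unadjusted p below 0.05 (15.0%), namely 9, 12 and 16. Chromosome 16 had the lowest p (0.00740, adjusted p = 0.148) and was singled out after its values were seen. The arm means differed most for chromosome 12, with -1.04 ± 8.95 percentage points relative to the other autosomes at 20 cycles, 15.5 ± 11.5 at 23 cycles and -5.80 ± 11.3 at 25 cycles. For chromosome 9 the means were -3.56 ± 7.33, 3.19 ± 11.0 and 17.5 ± 6.13. They differed least for X and for chromosome 6, over ranges of 6.32 and 6.86 percentage points.

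**Figure D4:**
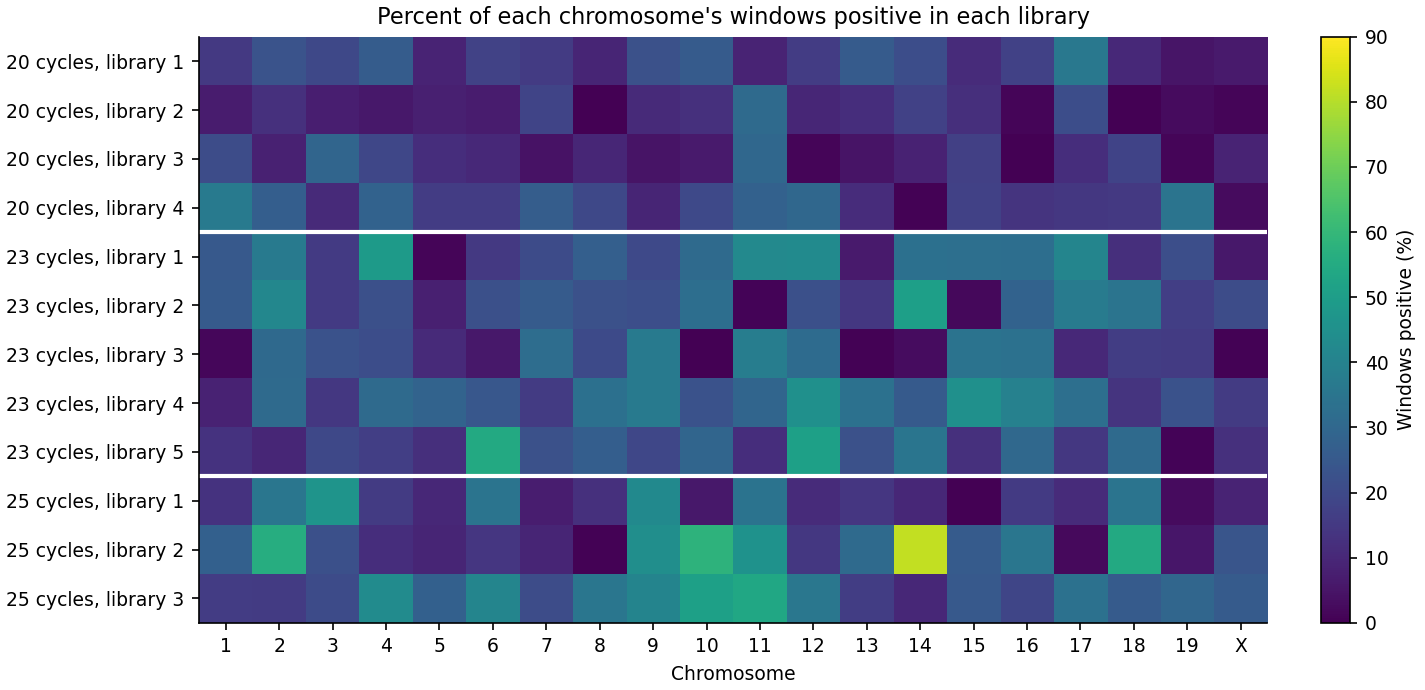
Percent of the windows of each chromosome that were positive (colour) in each of the 12 libraries (rows, arms separated by white lines). Each library has its own set of well and poorly covered chromosomes, up to 81.9% for chromosome 14 in 25-cycle library 2, and the columns show no chromosome that passed the test between arms.

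Single windows can hardly pass a test at these group sizes, since the smallest p of 4 libraries against 8 would have to be reached by a sizeable share of all windows. Of 47902 windows positive in 2 to 11 of the 12 libraries, 0 passed Fisher's exact test of 20 cycles against the other arms after adjustment (percent called 0.0). The count of 0 therefore does not show that the arms caught the same windows. At an unadjusted p below 0.05, 86 windows were positive more often at 20 cycles (0.18%) and 22 less often (0.0459%). With 4 libraries against 8, these directions are not equally within reach. A window positive in few libraries can only reach such a p as more often at 20 cycles. To reach it as less often a window must be positive in many libraries, which was rare. The balance of 86 to 22 therefore gives no direction. The lowest exact p was 0.00202, the smallest the design can give, and its adjusted value was 0.987. It was reached by 6 windows, positive in 4 of 4 libraries at 20 cycles and 0 of 8 in the others. The first 4 in the order of the genome lay over Kcnt2, a sodium-activated potassium channel (chr1:142200001-142240000), over Fbxo47 (chr11:97720001-97760000), over Kcnh4, Hcrt and Ghdc (chr11:100600001-100640000), and over Stat5b, a transcription factor of cytokine signalling (chr11:100640001-100680000). Hcrt encodes the precursor of the orexin peptides. The last 2 of these windows adjoin each other, and over all libraries of the series the 4 windows were positive in 50, 77, 62 and 68. Calls of pairs of libraries were nearly unrelated over autosomal windows, with correlations from 0.00914 to 0.0290 within the 20-cycle arm and from -0.0372 to 0.0819 between arms. No library pair was identical, and the closest differed in 12503 windows.

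How much of the genome an arm had seen at least once depends on its number of libraries as well, and the effects were not separated. Of 61816 autosomal windows, 47.7% were positive in at least 1 library at 20 cycles, 72.1% at 23 cycles and 58.9% at 25 cycles, from 4, 5 and 3 libraries. Over all 12 libraries the percent was 91.1.

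A few windows were positive whatever the cycle number. Of the autosomal windows, 6 were positive in all 12 libraries: chr2:98480001-98520000 over Gm10801 and Gm10800, chr9:3000001-3040000 over 12 predicted genes, chr9:35080001-35120000 over Rpusd4 and Gm5614, chr11:3040001-3080000 over Sfi1, chr11:3080001-3120000 over Sfi1, Drg1 and Eif4enif1, and chr17:39960001-40000000 over no protein-coding gene. Over the whole series, the first of them was positive in every library and the others in 247, 245, 242, 235 and 224. The first 3 held a shared sequence of 24 bases. The most repeated 24 bases of the first window (in the order of the plus strand, TCATTTTCCATGATTTTCAGTTTT) and of the third (TCATTTTCCGTGATTTTCAGTTTT on the other strand) differed at 1 base. On either strand, these letters occurred in 7 of the 61816 autosomal windows (0.0113%), including these 3, and the 7 windows were positive in 12, 12, 12, 11, 10, 2 and 3 of the 12 libraries. They resemble the major satellite, the tandem repeat that makes up the pericentromeric heterochromatin of mouse chromosomes and is present in many more copies than the assembly holds. To show the repeat where the calls were constant, 240 bases of the plus strand of each of the 3 windows are given from the mm9 assembly, at chr2:98502457-98502696, chr9:3000067-3000306 and chr9:35112819-35113058, with matches to either 24-base sequence on either strand in capitals.
Chromosome 2 window: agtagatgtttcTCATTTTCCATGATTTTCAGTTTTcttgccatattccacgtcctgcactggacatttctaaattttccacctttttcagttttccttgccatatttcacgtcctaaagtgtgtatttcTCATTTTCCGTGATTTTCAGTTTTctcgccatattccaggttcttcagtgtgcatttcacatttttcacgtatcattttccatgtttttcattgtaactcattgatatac
Chromosome 9 window from 3000001: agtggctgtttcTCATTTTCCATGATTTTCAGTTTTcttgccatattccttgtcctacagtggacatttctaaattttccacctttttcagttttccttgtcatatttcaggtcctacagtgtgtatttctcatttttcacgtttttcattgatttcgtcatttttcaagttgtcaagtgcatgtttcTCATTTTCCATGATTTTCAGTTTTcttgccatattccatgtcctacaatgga
Chromosome 9 window from 35080001: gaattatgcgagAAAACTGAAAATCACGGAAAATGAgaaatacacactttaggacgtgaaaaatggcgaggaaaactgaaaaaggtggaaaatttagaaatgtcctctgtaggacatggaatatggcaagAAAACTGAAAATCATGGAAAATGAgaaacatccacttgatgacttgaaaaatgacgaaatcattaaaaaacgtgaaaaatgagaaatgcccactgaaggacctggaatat

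The 2 sequences together occurred 12 times in the window on chromosome 2, 131 times in the first window of chromosome 9 and 3 times in the second. The 24-base sequences were chosen from these windows, so their presence there is a description. Leaving out the 47 windows positive in more than 50% of all libraries of the series, as was tried after the data had been seen, left the fill rates of the arms at 72.4%, 85.4% and 85.7%.

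What a difference in fill rate looks like at a gene can be read from long genes, which span many windows. The list of 24 long genes, most of them neuronal and many at sites prone to breakage, covered 726 autosomal windows, to which Dmd and Il1rapl1 on X do not contribute. Within them the fill rate was 66.5% ± 2.38 in the 3 libraries at 20 cycles that had at least 20 flanked windows, 82.8% ± 1.62 in the 5 libraries at 23 cycles and 81.5% ± 4.22 in the 3 at 25 cycles. The rates over all windows of these arms were 72.4%, 85.4% and 85.7%. Among the autosomal windows of olfactory receptor genes, which form large clusters that are silent in these cells, the fill rate was 71.03% ± 8.96 (3 libraries), 88.4% ± 3.24 (5) and 85.0% ± 1.78 (3). The 20-cycle arm was lowest in both lists, as over all windows, while the 23-cycle arm was above the 25-cycle arm in both.

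Lrp1b, a large receptor of the LDL receptor family on chromosome 2, spans 52 windows and was the best covered of the 6 longest genes. At 20 cycles it had 34, 0, 0 and 28 positive windows in libraries 1 to 4. At 23 cycles it had 22, 28, 32, 5 and 32, and at 25 cycles 6, 35 and 2. Libraries either caught a large share of the gene or little of it, in each arm. The longest run over the gene in the covered libraries was 520 and 200 kb at 20 cycles, 320, 280, 640 and 360 kb in 23-cycle libraries 1, 2, 3 and 5, and 400 kb in 25-cycle library 2. At this gene the arms overlapped.

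**Figure D5:**
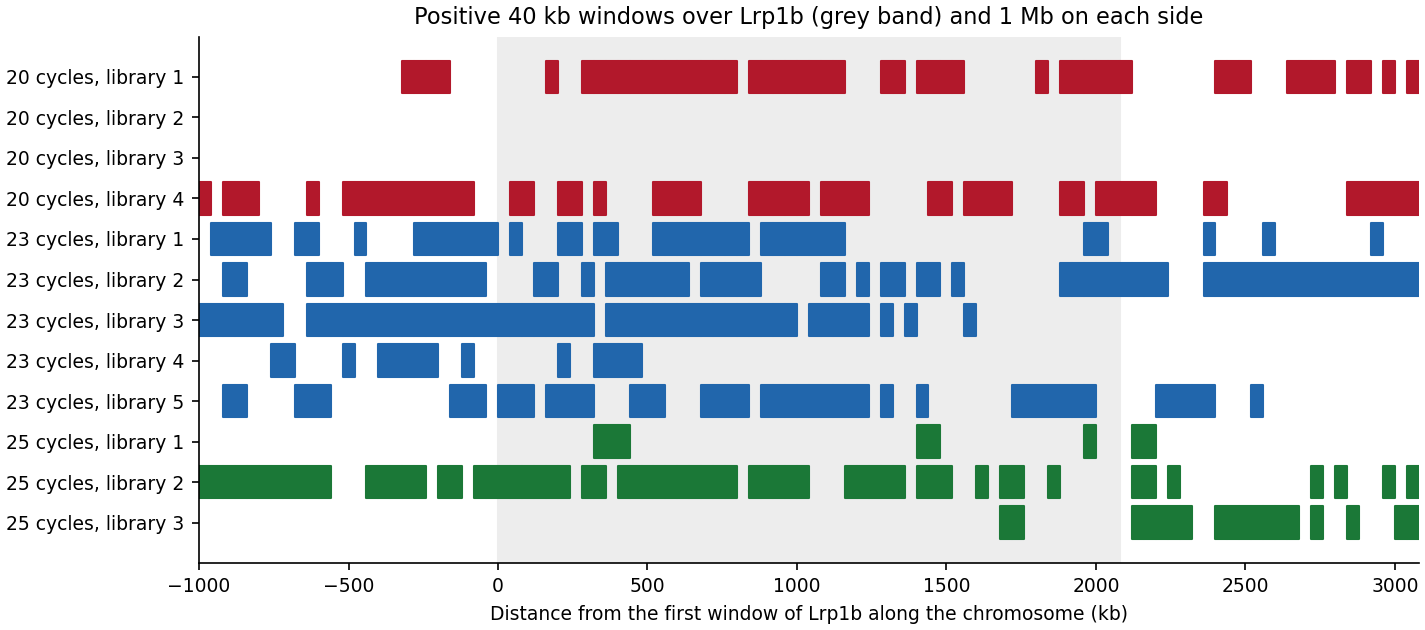
Positive windows (bars) over Lrp1b (grey band, 52 windows of 40 kb) and 1 Mb on each side in the 12 libraries, by distance along the chromosome from the first window of the gene. The 20-cycle libraries 1 and 4 caught 34 and 28 windows of the gene, and libraries 2 and 3 caught 0.

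At Dlg2, a scaffold protein of synapses with 49 windows, 23-cycle library 2 had 38 positive windows with an unbroken run of 1440 kb, and 23-cycle library 3 had 34 with a run of 880 kb. The 20-cycle library that caught most of the gene, library 2, had 14 positive windows in 9 runs, the longest of 120 kb. The other libraries caught little of Dlg2, with 0, 1 and 5 positive windows in 23-cycle libraries 1, 4 and 5 and 7, 3 and 3 at 25 cycles, and none of them had a run above 120 kb. Cntnap2, a cell adhesion protein of neurons with 57 windows, had 0 positive windows in all 4 libraries at 20 cycles. At 23 cycles it had 6, 1, 1, 1 and 34, and at 25 cycles 3, 3 and 33. Ptprd, a receptor phosphatase with 58 windows, had 27 and 24 positive windows in 20-cycle libraries 1 and 4 and 0 in the others. It had 23, 7, 19, 3 and 24 at 23 cycles and 11, 0 and 6 at 25 cycles. The longest run over Ptprd was 680 kb, in 23-cycle library 5, followed by 240 kb in 20-cycle library 1, and the other libraries had runs of at most 160 kb. Macrod2, with 51 windows, had 2, 3, 0 and 2 positive windows at 20 cycles, 2, 28, 17, 2 and 0 at 23 cycles and 20, 0 and 0 at 25 cycles. Dmd, the dystrophin gene on X, with 58 windows, had 0, 0, 2 and 3 positive windows at 20 cycles, 1, 39, 1, 11 and 0 at 23 cycles and 0, 4 and 8 at 25 cycles. At both genes most libraries of the other arms were about as low as those at 20 cycles. Whether the slices of a tube missed a gene or its DNA went undetected cannot be told apart in these counts.

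The regulators of the embryonic stem cell state sit in short genes, where a library gives a single call or a few. Of the list of 15, 14 were caught at least once in the 12 libraries, 11 at 20 cycles, 11 at 23 and 6 at 25. Their 24 windows were positive at 26.04% ± 7.12, 25.8% ± 11.6 and 27.8% ± 2.41 in the 3 arms. Relative to the autosomal coverage of each library, that was 1.39 to 2.40 times at 20 cycles, 0.611 to 1.64 times at 23 cycles and 1.00 to 1.27 times at 25 cycles. All 4 libraries at 20 cycles were above their own coverage, on at most 8 positive windows each. The autosomal windows of the 12 housekeeping genes, without Hprt and Pgk1 on X, were positive at 0.927 to 2.06 times the coverage at 20 cycles, 0.707 to 1.83 times at 23 and 0.857 to 1.69 times at 25, so a level above coverage was not particular to the pluripotency list, and windows over protein-coding genes in general were above the rest as well. Of the core factors, Sox2 was caught in 3 libraries (2 of them at 20 cycles), Pou5f1 in 3 (2 at 20 cycles) and Nanog in 4 (2 at 20 cycles), none of them at 25 cycles. Of the Krüppel-like factors, Klf4 and Klf2 were caught in 2 libraries each. The nuclear receptors Esrrb and Nr5a2, which span 5 and 4 windows, were caught in 8 and 6. Tfcp2l1, a transcription factor of naive pluripotency, was caught in 6, with 2 positive windows in each. The zinc finger protein genes Sall4 and Zfp42 were caught in 4 and 2, and Lin28a, an RNA-binding protein that blocks let-7 processing, in 4. Dppa3 was caught in 3, Tbx3 and Tcl1 in 1 each, and Prdm14 in 0. All 12 housekeeping genes were caught at least once, 5 at 20 cycles and 9 in each of the other arms. These counts stand beside the 47.7%, 72.1% and 58.9% of all autosomal windows caught at least once at 20, 23 and 25 cycles. The Hox clusters, over 16 windows, had 14.1% ± 7.86, 25.0% ± 21.2 and 25.0% ± 12.5 of windows positive. Individual libraries ranged from 0.0% to 50.0%. As multiples of the autosomal coverage of each library, the Hox values were 0.309 to 2.38 at 20 cycles, 0.0 to 1.83 at 23 and 0.634 to 1.29 at 25. These ranges overlapped, and each arm had libraries below and above their own coverage. The lower percent at 20 cycles is therefore not a difference particular to the Hox clusters.

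The 25-cycle arm was also the protocol of libraries in other experiments. The protocol text of 39 libraries, 11 frozen late in the early freezing test, 10 unstained in the cresyl violet test and 18 unstained in the eosin test, was that of the 25-cycle arm as far as the text of each was available here. Fill rates of these 39 had a mean of 75.5% ± 11.3 and ran from 41.2% to 90.03%. Against the 39 together, the differences in fill rate were -3.07 percentage points at 20 cycles, 9.89 at 23 and 10.2 at 25, and none of the 9 comparisons (fill rate, neighbour share and coverage) passed the exact permutation test after adjustment (adjusted p from 0.0974 to 0.569).

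The 3 experiments differed from each other, so they were also taken alone. The unstained libraries of the cresyl violet test had fill rates of 76.2% to 90.03%, and all 10 were above the highest 20-cycle library (difference -13.1 percentage points, exact permutation test, adjusted p = 0.00899). Against these, the 23- and 25-cycle arms differed by -0.169 and 0.125 percentage points (exact permutation test, adjusted p = 0.986 for each). The late-frozen libraries had fill rates of 70.3% to 87.7%, and the 20-cycle arm was lower by a difference of -8.43 (exact permutation test, adjusted p = 0.0527). The unstained libraries of the eosin test had fill rates of 41.2% to 77.7%, all below the lowest library at 23 and at 25 cycles (differences 18.8 and 19.1, exact permutation test, adjusted p = 0.000267 and 0.00338). The 20-cycle arm lay inside their range, with a difference of 5.79 (exact permutation test, adjusted p = 0.340). The spread between experiments at 25 cycles was thus at least as large as the difference between the arms, and the experiments cannot be told apart from whatever else differed between them.

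The same held against the whole series. Of the 237 other libraries, 107 had a coverage within that of the 20-cycle arm, from 9.63% to 18.5%. Their fill rates had a median of 76.3% and ran from 44.965% to 89.7%: 31 lay below the 4 libraries at 20 cycles, 14 among them and 62 above. Of the 76 with a coverage within that of the 23-cycle arm, 48 had a fill rate below all 5 libraries of the arm and 5 a higher one. By fill rate the 20-cycle libraries ranked 56 to 84 from the lowest of the series, and the 23- and 25-cycle libraries 174 to 244.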

How the data were processed

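The deposited table holds a call of 0 or 1 for each of 68162 windows of 40 kb in 249 libraries. Per the study's methods, the authors aligned to mm9, a mouse assembly, using Bowtie2 (version 2.1 in the submitters' processing notes), removed PCR duplicates with Samtools, and called a window positive with GAMtools at a fixed threshold of 4 reads. The table gives no read counts, so depth per library is unknown and no count model was used. The number of tubes prepared per arm was not used here.

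The members, gene lists and the grouping of 20 cycles against the rest were chosen with earlier results of these data known. Arms were compared by the exact permutation test of F over 27720 assignments with Benjamini-Hochberg adjustment over 10 measures, by two-sided exact permutation tests of differences with intervals got by inverting the test, and by Fisher's exact test for windows, with a threshold of 0.05. The named windows were those positive in all 12 libraries and 4 of lowest p, ties being taken by the difference in percent positive and then in the order of the genome; the named chromosomes were the 2 with the largest and the 2 with the smallest range of arm means, besides chromosome 16, named for its p after its values were seen; the named genes were the pluripotency list and the 6 long genes with most windows. GC content, sequences and genes came from the mm9 genome (NCBIM37) and GENCODE vM1, whose chromosome ends equal those of the table; 1 gene was matched by an older symbol. Windows with fewer than 20000 called bases had no GC value. Computation used Python 3.11.15, NumPy 2.4.6, SciPy 1.17.1 and pandas 2.3.3, and the scripts were tested on simulated data.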

Additional observations from a re-analysis of the deposited data

How the results depend on the processing

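Over 33 results and 450 alternatives, 412 kept both direction and side of the threshold. Part of that count was fixed in advance, so it is no measure of robustness. Leaving out a library of the third arm leaves a difference between the other arms as it was. Results that passed in no setting, such as the window tests, also count as kept where their direction stayed. Fill rate, neighbour share, its excess and mean run length across the arms passed under every alternative run, with adjusted p up to 0.0312, 0.0312, 0.0407 and 0.0312 when a library was left out. Coverage no longer passed on ranks (F = 5.58) or in bins of 1 Mb (F = 2.18, adjusted p = 0.219), nor did the gene contrast with gene starts (F = 5.23, adjusted p = 0.0605). With medians, the small differences of 25 minus 23 cycles turned to -0.101 percentage points in fill rate and -4.25 kb in run length.

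Leaving out a library in turn gave F from 4.27 to 12.1 for coverage, 0.0417 to 1.01 for the isolated rate, 3.29 to 21.97 for the GC contrast, 5.58 to 16.2 for the gene contrast and 1.56 to 8.82 for the distance decay. It gave differences of 25 minus 23 cycles from -0.969 to 1.01 in neighbour share, from -1.28 to 1.55 in fill rate and from -10.0 to 20.1 kb in run length, where leaving out 25-cycle library 2 turned the sign of each, 23-cycle library 5 that of neighbour share (-0.104) and fill rate (-0.459), and 23-cycle library 2 that of neighbour share (-0.00553). Without 20-cycle library 4 the isolated rate was no longer highest at 20 cycles. The cause of these changes was not tested.

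Against single experiments with the same protocol text, differences from the cresyl violet libraries were -9.15 (20 cycles) and -0.947 (23) in coverage, -10.6 (20) and -0.0789 (23) in neighbour share, and -13.1 (20) and -0.169 (23) in fill rate. Differences from the eosin libraries were 3.39 (20), 13.9 (23) and 14.2 (25) in neighbour share, and 5.79 (20), 18.8 (23) and 19.1 (25) in fill rate. No paired analysis was run, because the replicate numbers only name libraries. Library names of different arms also share letters, and what these stand for is not known here. Precision is limited by 3 to 5 libraries per arm and by calls without read counts.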

Other observations

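The mitochondrial genome, a single window in the table, was positive in 247 libraries of the series. Of the 12 libraries of the cycle number experiment it was negative in 20-cycle library 2, which also had the lowest coverage of the 12 (9.63%). Of 398 windows of chromosome Y, 4, 32, 5 and 1 were positive at 20 cycles, 29, 29, 0, 16 and 1 at 23 cycles, and 0, 21 and 0 at 25 cycles. The most positive windows on Y were in 20-cycle library 2, whose X to autosome ratio was 0.114. Of the 3 libraries with 0 on Y, 23-cycle library 3 had a ratio of 0.0254, 25-cycle library 1 of 0.455 and 25-cycle library 3 of 0.890. Whether X and Y go together was not tested. None of the 1780 windows on unplaced or random sequences was positive in any of the 12.

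Gaps of a single window numbered 33.8 to 34.9 per 100 runs at 20 cycles, 36.3 to 38.2 at 23 cycles and 36.1 to 43.1 at 25 cycles. The 20-cycle arm was thus lower without overlap, although a larger share of the windows between positive neighbours was negative there. The number of runs per library was 2581 to 5665 at 20 cycles, 2624 to 4686 at 23 cycles and 3459 to 5391 at 25 cycles. The ranges of the 3 arms overlapped in the number of runs, while the mean run length at 20 cycles, 89.1 to 101.7 kb, lay below that of the others.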
